A study of Mus musculus with 12 samples.

Results

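The *Esrrb* gene of mouse embryonic stem cells (ESCs) carries its own super-enhancer (SE), and MED1 and H3K27ac were compared across it between ESCs that lack a working *Esrrb* gene and their controls. Every SE subregion with values that overlaps the window chr12:87500000-88050000 (mm9), which holds the gene and its flanks, was taken, and this gave 9 of the 671 subregions. They are called S1 to S9 here in the order of the gene. ChIP-seq libraries were made for MED1, H3K27ac and input DNA, with 2 replicate libraries each in *Esrrb*-/- ESCs and in *Esrrb* f/f ESCs, 12 in all, from cells grown on gelatin in serum with LIF. The control cells carry *Esrrb* alleles flanked by loxP sites and are named wt in the sample titles. Both populations come from an earlier study. Whether each is 1 clone, and which segment of the gene is missing from the mutant, is not given in the sources used here.

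ESRRB is an orphan nuclear receptor that binds DNA as a monomer at sites with the core AAGGTCA and belongs to the transcription factor network of naive pluripotency together with OCT4, SOX2, NANOG and KLF factors. Its gene is a well-known target of NANOG and of the Wnt-regulated repressor TCF3. MED1 is the Mediator subunit through which nuclear receptors contact the transcription machinery, and H3K27ac is a histone mark of active enhancers and promoters. In an SE, many such enhancer units lie close together around a gene of cell identity. Within SEs the study named persistently unmethylated (PU) subregions, free of CpG methylation in ESCs and in the more advanced epiblast stem cells. Differentially methylated (DM) subregions are unmethylated in ESCs and gain methylation in epiblast stem cells. The interstitial regions between them, methylated in both cell types, have no values in these data. All 9 subregions in *Esrrb* are of the DM type, of which there are 488 in the whole data, beside 183 PU subregions.

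*Esrrb* (ENSMUSG00000021255.10) spans chr12:87702067-87862578 on the plus strand in the mm9 annotation, with 7 transcripts, and all 9 subregions lie inside it. They form 2 blocks, where a gap of over 10 kb starts a new block. Block 1 (S1 to S5, chr12:87810910-87820211) begins 109 kb after the gene start, and block 2 (S6 to S9, chr12:87839395-87846134) follows after a gap of 19183 bp. S1 (chr12:87810910-87814729), the longest with 3820 bp, covers exon 2 of the longest transcript and the adjoining ends of introns 1 and 2. That exon, from 87811096 to 87811505, is shared with shorter transcripts. S1 also overlaps annotated untranslated sequence of 3 of these, 1 of which starts within S1. S2 (chr12:87815347-87816357), S3 (chr12:87816893-87817430), S4 (chr12:87818755-87819126) and S5 (chr12:87819686-87820211) lie in intron 2. S6 (chr12:87839395-87840514), S7 (chr12:87842636-87842944), S8 (chr12:87843619-87844300) and S9 (chr12:87844835-87846134) lie in intron 3, and S9 also covers an exon of a short transcript that starts at 87845359. S7 is the shortest with 309 bp.

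The ESRRB core motif AAGGTCA, read on both strands of the mm9 reference sequence, was found 8 times in 6 of the 9 subregions (66.7%), against 37.7% of all DM subregions and 42.1% of the 404 DM subregions within the same range of length. Each match is shown with 20 bases on either side, 5′ to 3′ on the strand that reads AAGGTCA, with the core in capitals, because these are the letters through which ESRRB could meet its own gene.
S1 first match, minus strand, chr12:87813297-87813343: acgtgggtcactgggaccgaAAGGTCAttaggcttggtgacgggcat
S1 second match, minus strand, chr12:87814233-87814279: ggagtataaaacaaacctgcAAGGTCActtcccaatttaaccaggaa
S4, minus strand, chr12:87819088-87819134: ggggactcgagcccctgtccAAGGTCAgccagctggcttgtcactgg
S6 first match, minus strand, chr12:87839467-87839513: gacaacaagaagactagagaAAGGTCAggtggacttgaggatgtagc
S6 second match, plus strand, chr12:87839684-87839730: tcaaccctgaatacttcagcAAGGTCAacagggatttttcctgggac
S7, minus strand, chr12:87842647-87842693: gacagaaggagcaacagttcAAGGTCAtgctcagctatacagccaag
S8, minus strand, chr12:87843735-87843781: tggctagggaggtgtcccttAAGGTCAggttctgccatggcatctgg
S9, plus strand, chr12:87845451-87845497: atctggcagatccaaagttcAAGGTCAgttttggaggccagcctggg
In S7 and S9 the core is preceded by TC, which completes the longer form TCAAGGTCA that is the textbook site of this receptor. S2, S3 and S5 hold no match. These letters are those of the reference genome, which may differ from the sequence of the ESCs, and a match is a description of the letters and not a site shown to be bound.

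The octamer ATGCAAAT, the motif of POU factors such as OCT4, was found once each in S1, S5 and S9 (33.3%, against 8.81% of DM subregions). This and the following motifs were searched on both strands. The 3 matches are shown with 20 bases on either side and the octamer in capitals, since S5 has no ESRRB core and S1 and S9 have both.
S1, minus strand, chr12:87811976-87812023: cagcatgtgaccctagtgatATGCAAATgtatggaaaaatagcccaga
S5, plus strand, chr12:87819970-87820017: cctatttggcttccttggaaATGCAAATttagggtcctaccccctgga
S9, plus strand, chr12:87845779-87845826: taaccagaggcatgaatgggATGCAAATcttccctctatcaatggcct
The TCF motif ATCAAAG was found in S1, S2 and S9 (33.3%, against 18.6% of DM subregions), the KLF motif GGGTGTGG in S3 and S9 (22.2%, against 17.6%), and the SOX motif ACAATGG in S1 and S8 (22.2%, against 18.6%). The STAT motif TTCCNGGAA, which 5.33% of DM subregions hold, was not found in any of them. No match of 1 motif overlapped a match of another. S9 held the ESRRB, POU, TCF and KLF letters, and S1 the ESRRB, POU, TCF and SOX letters.

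The subregions S7 and S4 are shown further, as the sites of the highest MED1 and of the largest H3K27ac difference described below. The first 300 bases of S7 and the last 300 bases of S4 are given on the plus strand, with the ESRRB core in capitals in the orientation TGACCTT in which this strand reads it.
S7, chr12:87842636-87842935: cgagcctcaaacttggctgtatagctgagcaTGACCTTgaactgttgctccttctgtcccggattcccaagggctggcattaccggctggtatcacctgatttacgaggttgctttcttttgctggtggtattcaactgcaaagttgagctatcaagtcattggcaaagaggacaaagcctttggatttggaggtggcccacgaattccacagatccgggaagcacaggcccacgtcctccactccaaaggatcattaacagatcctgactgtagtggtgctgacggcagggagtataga
S4, chr12:87818827-87819126: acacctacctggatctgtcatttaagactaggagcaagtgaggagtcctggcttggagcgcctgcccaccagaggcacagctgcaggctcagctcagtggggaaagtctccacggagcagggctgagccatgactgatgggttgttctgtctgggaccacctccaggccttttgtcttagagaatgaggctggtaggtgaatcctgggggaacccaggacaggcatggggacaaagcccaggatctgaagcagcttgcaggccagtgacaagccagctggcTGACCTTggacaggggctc
The core begins at base 32 of S7 and at base 354 of S4. CpG density separated the subregions more than base composition did. S7 and S1 had 25.9 and 23.8 CpGs per kb, and the other 7 between 9.82 and 16.7. The share of G and C ran from 45.5% in S3 to 58.3% in S4.

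MED1 in *Esrrb*-/- ESCs remained at the super-enhancer of the mutated gene, and relative to other subregions it was higher there than in the control. The deposited values are RPKM (reads per kilobase, scaled to a total of reads), with 1 value for each condition and not 1 for each library. They therefore allow no test between genotypes, and the intervals given here are 95% intervals that cover counting error only. Over all 9 subregions together, MED1 reached 1559 RPKM in the *Esrrb* f/f control and 2169 RPKM in the *Esrrb*-/- mutant. These 9 subregions make up 1.16% of the length of all subregions. They held 2.19% (exact binomial interval 2.14 to 2.25) of the MED1 reads of all subregions in *Esrrb* f/f ESCs and 3.70% (3.60 to 3.80) in *Esrrb*-/- ESCs, a share 1.69 times as large. For H3K27ac the level was 595 RPKM in the control and 1078 RPKM in the mutant, and the share of reads was 1.30% (1.27 to 1.33) and 1.69% (1.66 to 1.72), which is 1.30 times as large. Between 91 and 3641 reads lay behind each value of an *Esrrb* subregion.

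MED1 at each *Esrrb* subregion was above the median of the DM subregions already in the control cells, and at all but S3 above their upper quartile of 976 RPKM. In *Esrrb* f/f ESCs it ran from 767 RPKM at S3 to 4623 RPKM at S7, with a median of 1440, and all 9 were above the median of 555 RPKM over the DM subregions. In *Esrrb*-/- ESCs it ran from 1701 RPKM at S8 to 4944 RPKM at S7, with a median of 2136, against a median of 459 RPKM over the DM subregions. S7 had the highest MED1 of all 671 subregions in both genotypes. Of the 10 DM subregions with the highest MED1, 1 was an *Esrrb* subregion in *Esrrb* f/f ESCs and 6 were in *Esrrb*-/- ESCs. All 9 were within the first 17 of the 488 DM subregions in the mutant, whereas they were spread from rank 1 to 168 in the control. These ranks do not depend on the total to which a condition was scaled.

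**Figure D1:**
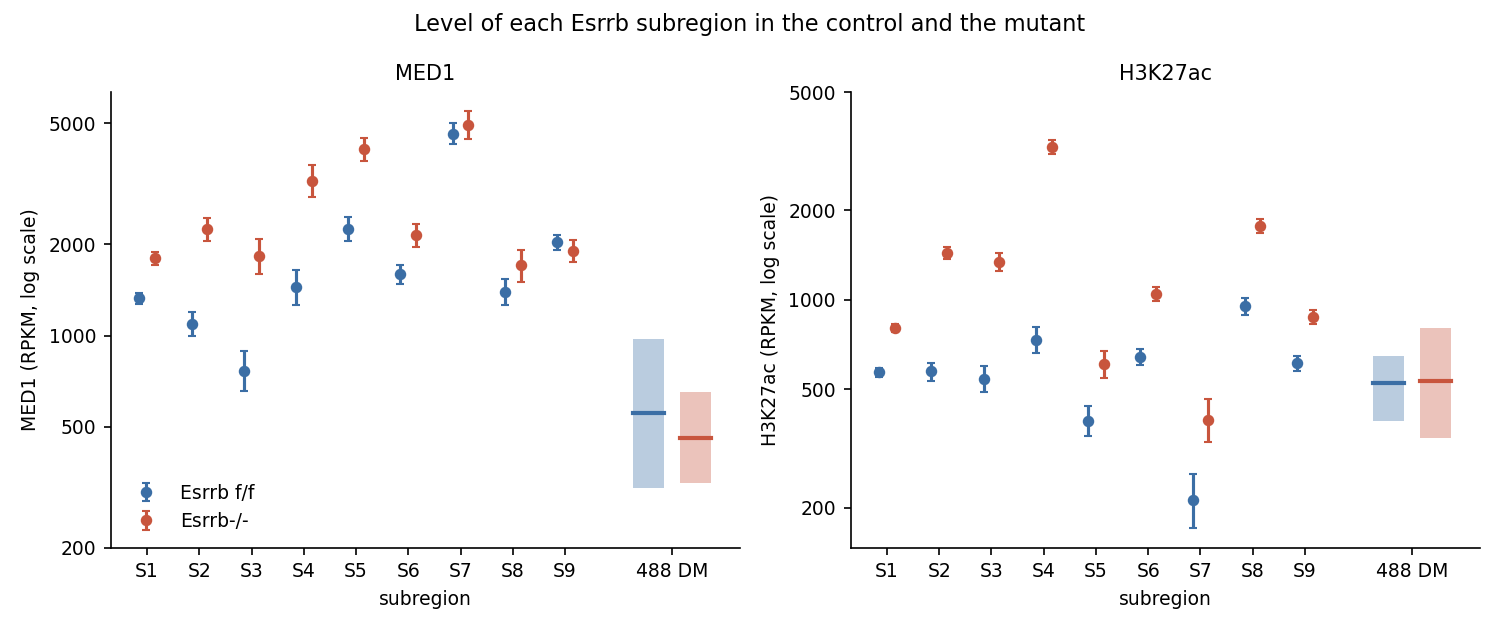
MED1 (left) and H3K27ac (right) in RPKM on a log scale at S1 to S9 in *Esrrb* f/f (blue) and *Esrrb*-/- ESCs (red). Points are the deposited values and bars their 95% counting intervals, and the boxes at the right show the quartiles and the median of the 488 DM subregions. All MED1 points lie above the DM medians of 555 and 459 RPKM, and S7 is the highest for MED1 and the lowest for H3K27ac.

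The difference between genotypes was then calculated for each subregion as the log2 of the *Esrrb*-/- over the *Esrrb* f/f value after adding 1 RPKM to each. The mutant had more MED1 at 8 of the 9 subregions, against 42.0% of all 671 and 40.2% of the DM subregions. The median log2 fold change was 0.44, whereas the median over all DM subregions was −0.18 and that over PU subregions −0.03. A MED1 level at least 1.5 times higher was found at 4 of the 9, S2, S3, S4 and S5, and a level at least 1.5 times lower at none. Over all 671 subregions 14.8% were higher by this measure and 26.8% lower, and over the DM subregions 15.2% and 30.7%. The 95% counting interval lay above 0 at 7 subregions and included 0 at S7 and S9. All 9 values were above the median of the DM subregions.

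The sign of these MED1 differences depends on the total used for scaling, whereas the position of the *Esrrb* subregions among the others does not. The deposited values follow from MED1 totals of 424897 reads in the control and 230504 in the mutant, of which 291893 and 130733 reads lie in the 671 subregions. These totals are far below the read pairs that the study lists for a library, and what else they count is not stated in the sources used here. Scaled instead to the mapped read pairs that the study lists, a choice made after the data were seen, every MED1 log2 fold change was lower by 0.77. The *Esrrb* median was then −0.34, with 4 subregions higher and 5 lower in *Esrrb*-/- ESCs, while the median of the DM subregions was −0.95 and 91.4% of them were lower. No *Esrrb* subregion was then higher by 1.5 times, and 2 (S7 and S9) were lower. Of the 488 DM subregions 7 were higher and 339 lower by this measure, and of all 671 subregions 12 and 458.

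On the deposited scale each of the 5 subregions of block 1 had more MED1 in the mutant. S1, over the shared exon, had 1326 RPKM in the control and 1794 RPKM in the mutant, with a log2 fold change of 0.44 (0.34 to 0.53). At S2, the next into intron 2, MED1 was 1093 and 2234 RPKM, with a log2 fold change of 1.03 (0.85 to 1.21). S3 had the lowest control value of the 9, 767 RPKM, and 1826 RPKM in the mutant. Its log2 fold change of 1.25 (0.96 to 1.54) was the largest MED1 difference at the locus and the eleventh largest of the DM subregions. MED1 at S4 was 1440 and 3227 RPKM, with a log2 fold change of 1.16 (0.91 to 1.42). S5 had 2241 and 4107 RPKM, with a log2 fold change of 0.87 (0.69 to 1.06), and was second to S7 in both genotypes. In the mutant the counting intervals of S5 and S7 overlapped, and in the control they did not.

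In block 2 the MED1 log2 fold changes were lower than in block 1, and on the deposited scale nearer to 0. S6 had 1588 RPKM in the control and 2136 RPKM in the mutant, with a log2 fold change of 0.43 (0.27 to 0.59). At S7, the highest of all, the values were 4623 and 4944 RPKM, with a log2 fold change of 0.10 (−0.10 to 0.29). S8 had 1393 and 1701 RPKM, with a log2 fold change of 0.29 (0.06 to 0.52). S9 was the single subregion with less MED1 in the mutant, 2026 and 1897 RPKM, and its log2 fold change of −0.09 (−0.24 to 0.05) was within counting error. Each log2 fold change of block 1 was above each of block 2, although S1 and S6 at the boundary (0.44 and 0.43) differed by less than their counting intervals. With the reads of a block added up, the MED1 log2 fold change was 0.70 (0.63 to 0.77) in block 1 and 0.15 (0.07 to 0.24) in block 2. Scaled to the mapped read pairs these values were −0.075 and −0.62, so that block 2 then had the larger difference between genotypes, while block 1 stood above block 2 as before.

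The 2 blocks were next placed among the 232 blocks into which all subregions fall by the same gap of 10 kb. By MED1 level, block 1 stood at rank 45 in *Esrrb* f/f ESCs and at rank 4 in *Esrrb*-/- ESCs, and block 2 at ranks 13 and 3. By MED1 log2 fold change block 1 was the fifth highest, and block 2 stood at rank 52, against a median of −0.25 over the blocks. By H3K27ac level block 1 went from rank 94 to 29, and block 2 from rank 40 to 31. Both blocks thus stood higher in the mutant than in the control for both marks.

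**Figure D2:**
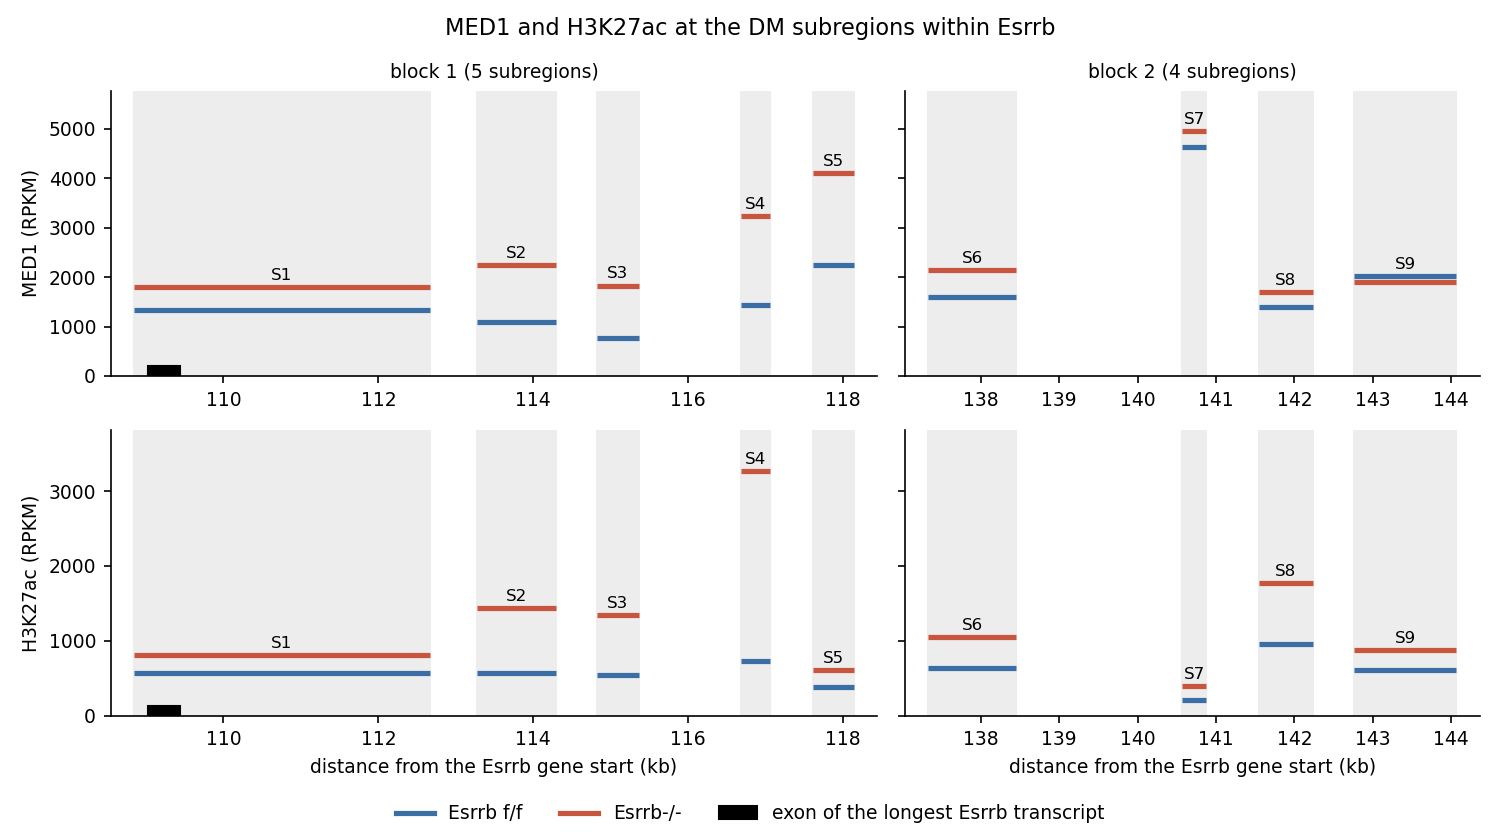
MED1 (top) and H3K27ac (bottom) in RPKM along the *Esrrb* gene, as distance in kb from the gene start, for block 1 (left) and block 2 (right). Grey bands are the subregions, lines the level in *Esrrb* f/f (blue) and *Esrrb*-/- ESCs (red), and the black box is an exon of the longest transcript. On the deposited scale, block 1 shows the wider MED1 gap between genotypes (log2 fold change 0.70, against 0.15 in block 2), which turns with mapped read pairs (−0.075 and −0.62), and S4 the widest H3K27ac gap.

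H3K27ac was higher in the mutant at all 9 *Esrrb* subregions, with a median log2 fold change of 0.89 and all 9 counting intervals above 0. It was higher in the mutant at 64.7% of all subregions, 58.0% of the DM and 82.5% of the PU subregions. The median was 0.24 over all, 0.12 over the DM and 0.66 over the PU subregions. A level at least 1.5 times higher was found at 7 of the 9, against 30.6% of all and 21.5% of the DM subregions, and a level at least 1.5 times lower at none, against 15.1% and 18.0%. S1 and S9 were the 2 that stayed below 1.5 times. Scaled to the mapped read pairs, each H3K27ac log2 fold change was lower by 0.33, and all 9 were still above 0 with a median of 0.57. On that scale 3 of the 9 (S2, S3 and S4) exceeded 1.5 times, against 118 of all 671 and 45 of the 488 DM subregions. With reads scaled to their total over all subregions the median was 0.41, and the counting intervals of S1, S5 and S9 then included 0.

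In contrast to MED1, the control level of H3K27ac at *Esrrb* was near that of other subregions. In *Esrrb* f/f ESCs it ran from 211 RPKM at S7 to 952 RPKM at S8, with a median of 574, and the median over the DM subregions was 526 RPKM. In *Esrrb*-/- ESCs it ran from 395 RPKM at S7 to 3265 RPKM at S4, with a median of 1046, against 532 RPKM. The order of the 9 also differed. S8 led in the control and S4 in the mutant, while S5 and S7 were the lowest in both. In the control, 5 of the 8 neighbours in this order had overlapping counting intervals, each from S6 down to S3 with the one before it, whereas in the mutant 1 pair, S2 and S3, overlapped.

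S4 stood out in block 1. Its H3K27ac was 735 RPKM in the control and 3265 RPKM in the mutant, a 4.44-fold difference and a log2 fold change of 2.15 (1.99 to 2.32), which was the third largest of the 488 DM subregions. Its level in the mutant was also the third highest of these. S2 had 574 and 1439 RPKM, with a log2 fold change of 1.32 (1.20 to 1.45), and S3 had 543 and 1342 RPKM, with 1.30 (1.13 to 1.48). These 3 subregions of intron 2 lie side by side, and their log2 fold changes were the 3 largest of the locus for MED1 and for H3K27ac. On either side the differences were smaller. S1 had 571 and 805 RPKM, a log2 fold change of 0.49 (0.43 to 0.57), and S5 had 391 and 607 RPKM, a log2 fold change of 0.63 (0.41 to 0.86).

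In block 2 the H3K27ac log2 fold changes ran from 0.52 at S9 to 0.90 at S7. S6 had 641 RPKM in the control and 1046 RPKM in the mutant, with a log2 fold change of 0.71 (0.59 to 0.83). S8 had 952 and 1770 RPKM, with 0.89 (0.77 to 1.02). S7 had 211 and 395 RPKM, with 0.90 (0.51 to 1.30), on the fewest reads of the locus (91 and 144). At S9 the values were 612 and 879 RPKM, with 0.52 (0.41 to 0.64), so that this subregion had more H3K27ac in the mutant where its MED1 was within counting error of the control. Added up, the H3K27ac log2 fold change was 0.71 (0.64 to 0.78) in block 2 and 0.94 (0.89 to 0.99) in block 1.

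**Figure D3:**
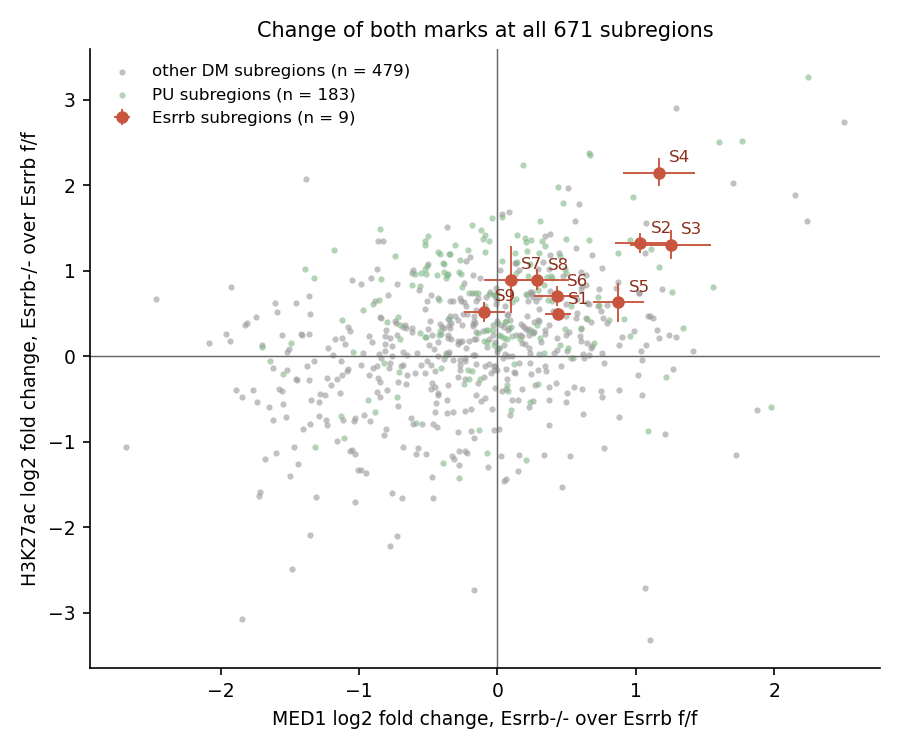
Log2 fold change (*Esrrb*-/- over *Esrrb* f/f) of MED1 (x axis) and H3K27ac (y axis) at the 9 *Esrrb* subregions (red, with 95% counting intervals), the 479 other DM subregions (grey) and the 183 PU subregions (green). Of the *Esrrb* subregions 8 lie at the upper right, where both marks are higher in the mutant on the deposited scale, and S4 is the highest.

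On the deposited scale both marks were higher in the mutant at 8 of the 9 *Esrrb* subregions (88.9%), against 27.6% of the 479 other DM subregions, and both were at least 1.5 times higher at 4 of the 9 and at 25 of the 479. H3K27ac differed more than MED1 at 8 subregions. The MED1 minus the H3K27ac log2 fold change had a median of −0.29 and ran from −0.99 at S4 to 0.24 at S5. The median was likewise −0.29 over the DM subregions and −0.40 over all subregions, so it does not set the locus apart. The *Esrrb* median rests on the scaling of 4 conditions. It had the other sign, at 0.089, with each mark centred on the median of all subregions (chosen after the data were seen). Across the 9 subregions the log2 fold changes of the marks went together, with a Spearman correlation of 0.57 and a Pearson correlation of 0.70. Over the 488 DM subregions both correlations were 0.32. The 9 points share their libraries and lie in 1 gene, so these values are a description.

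The ratio of MED1 to H3K27ac set S7 and S5 apart. At S7 the MED1 value was 21.9 times the H3K27ac value in *Esrrb* f/f ESCs, the highest ratio of the 488 DM subregions, and 12.5 times in *Esrrb*-/- ESCs, the second highest. At S5 the ratio was 5.73 and 6.77, at ranks 6 and 4. The ratios, and their difference between genotypes, rest on the scaling of each condition, whereas the ranks within a genotype do not. With mapped read pairs the log2 fold change at S5 was 0.10 for MED1 and 0.31 for H3K27ac, so that its ratio was then lower in the mutant. The other 7 had ratios between 1.41 and 3.31 in the control and between 0.96 and 2.23 in the mutant, where the median of the DM subregions was 1.11 and 0.94. The strongest MED1 at the locus was thus found on the subregions with the least H3K27ac. S7 is the shortest subregion and S5 one of the shorter ones, and ChIP fragments of 100 to 500 bp reach beyond subregions of this length, so levels of neighbours are not fully separate.

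How the reads were spread within the locus does not depend on any scaling between conditions. S1, with 39.5% of the covered length, held 33.6% (32.4 to 34.8) of the MED1 reads of the locus in *Esrrb* f/f and 32.7% (31.3 to 34.0) in *Esrrb*-/- ESCs. S2, S3, S4 and S5 together gained MED1 share, with S2 going from 7.32% (6.70 to 7.99) to 10.8% (9.90 to 11.7) and S4 from 3.54% (3.11 to 4.03) to 5.71% (5.07 to 6.40). S9 had the largest loss of MED1 share, from 17.5% (16.5 to 18.4) to 11.7% (10.9 to 12.7), and S7 followed, from 9.45% (8.74 to 10.2) to 7.26% (6.54 to 8.03). For H3K27ac, S4 went from 4.74% (4.28 to 5.22) to 11.6% (11.1 to 12.2) and S1 from 37.9% (36.8 to 39.0) to 29.5% (28.7 to 30.3). S8 kept a like share of H3K27ac, 11.3% (10.6 to 12.0) and 11.6% (11.0 to 12.1). In the mutant both marks thus lay more on the intron 2 subregions S2, S3 and S4 and less on S9 than in the control.

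**Figure D4:**
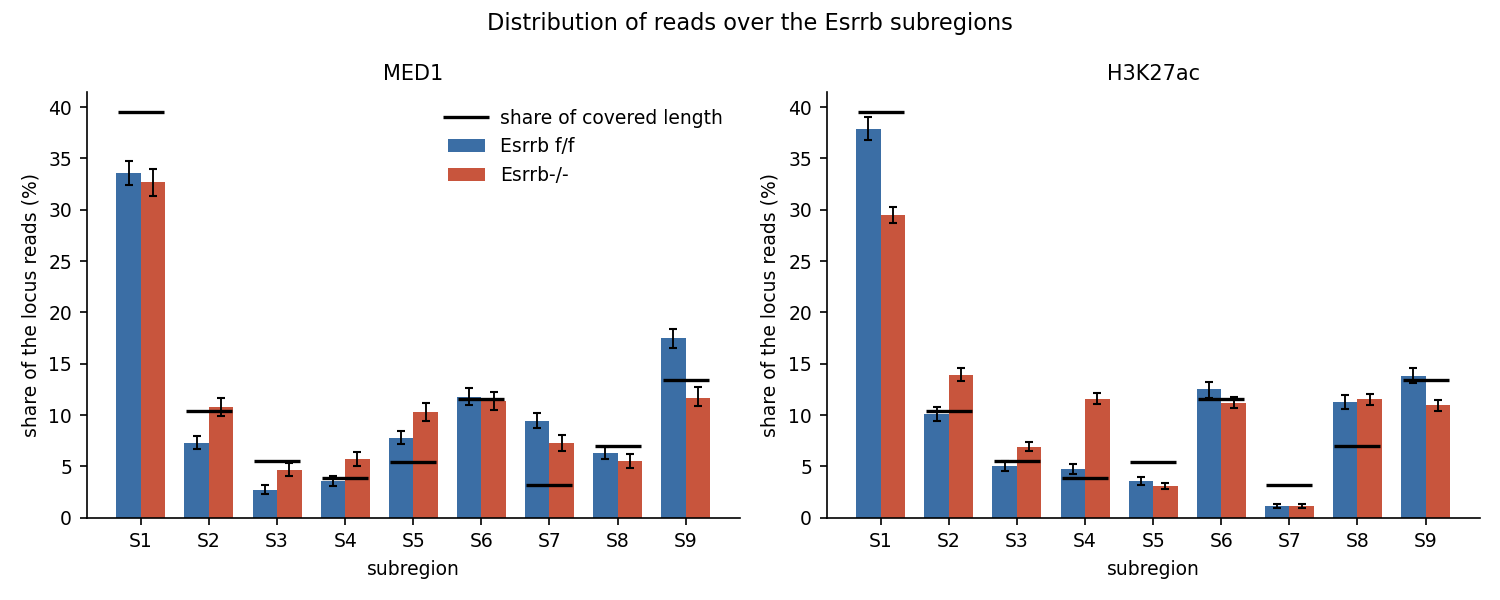
Share of the reads of the locus in each subregion, in percent, for MED1 (left) and H3K27ac (right) in *Esrrb* f/f (blue) and *Esrrb*-/- ESCs (red), with exact 95% binomial intervals that cover counting error only. The black dashes give the share of the covered length. S4 goes from 4.74% to 11.6% of the H3K27ac reads and S9 from 17.5% to 11.7% of the MED1 reads.

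The *Esrrb* subregions were then set beside other DM subregions with the same letters and a like control level. On the deposited scale the 178 other DM subregions with the ESRRB core stood at −0.51 in their median MED1 log2 fold change. MED1 was higher in the mutant at 19.1% of them. The 6 *Esrrb* subregions with the core had a median of 0.36, and 5 had higher MED1. In the 301 other DM subregions without the core the median was 0.02, whereas the 3 *Esrrb* subregions without it, S2, S3 and S5, had a median of 1.03. Within *Esrrb* as among the other DM subregions, those with the core thus had the lower median, but at *Esrrb* both medians were above 0 on this scale. At *Esrrb* the motif cannot be told apart from the block, since every subregion of block 2 holds the core and S2, S3 and S5 lie in block 1. Within block 1, S1 and S4 with the core were at 0.44 and 1.16. S2, S3 and S5 were at 1.03, 1.25 and 0.87. S4 was the one subregion with the core whose MED1 was at least 1.5 times higher. Scaled to the mapped read pairs, S4 alone of those with the core stayed above 0 (0.39), and the others ran from −0.34 at S1 to −0.87 at S9. S2, S3 and S5 were then at 0.26, 0.48 and 0.10.

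Higher control MED1 went with a lower MED1 log2 fold change over the DM subregions as a whole (Spearman correlation −0.65, across 488 subregions of the same libraries). This is a description in which the control value enters both measures. Across the 9 *Esrrb* subregions the correlation was −0.63. The MED1 levels of the 2 genotypes went together over the DM subregions (Spearman correlation 0.65). Of the other DM subregions, 159 had a control MED1 at or above the 767 RPKM of S3, the lowest of the 9, a limit set with the values known. On the deposited scale their median log2 fold change was −0.81, with MED1 at least 1.5 times lower at 100 of them (62.9%) and at least 1.5 times higher at 1. At the *Esrrb* subregions these counts were 0 and 4. For H3K27ac the 159 had a median log2 fold change of 0.13, with 26 higher and 22 lower by 1.5 times. Of the 159, 88 held the ESRRB core. On the deposited scale MED1 was higher in the mutant at 3 of these, against 5 of the 6 *Esrrb* subregions with the core. No test of this contrast was made, since each genotype has 1 pooled value and the subregions of 1 gene are not independent.

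**Figure D5:**
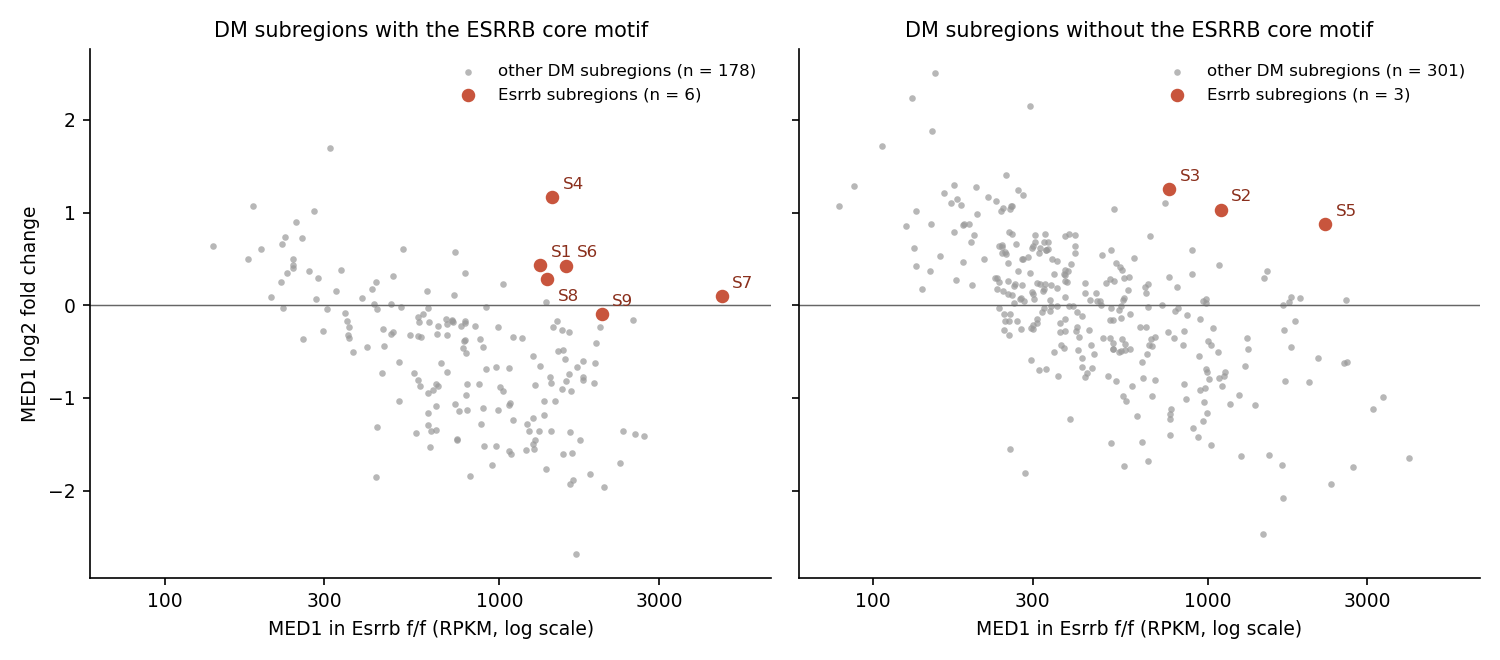
MED1 log2 fold change against the MED1 level in *Esrrb* f/f ESCs (RPKM, log scale) for DM subregions with (left) and without (right) the ESRRB core motif in the reference sequence. *Esrrb* subregions are red and the other DM subregions grey. On the deposited scale, at control levels from 767 RPKM upward, the 159 other DM subregions have a median of −0.81 and the *Esrrb* subregions run from −0.09 to 1.25.

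Other pluripotency genes were compared as a group, with the core factors *Pou5f1*, *Sox2*, *Nanog* and *Sall4* beside *Klf2*, *Klf4*, *Klf5*, *Tfcp2l1*, *Tbx3*, *Prdm14*, *Zfp42*, *Tdh*, *Tet2*, *Nr5a2*, *Dppa3*, *Dppa5a* and *Fgf4*. Of these 17 genes, all but *Nr5a2* had DM subregions within 100 kb of the gene body, 53 subregions in all. Some of the 53 lie near more than 1 of the genes and count for each, so the genes are not separate units. The median log2 fold change of the 53 was −0.27 for MED1 and 0.01 for H3K27ac. MED1 was at least 1.5 times higher at 6 of the 53 (11.3%, against 15.2% of all DM subregions) and lower at 19 (35.8%, against 30.7%). H3K27ac was higher by this measure at 7 (13.2%, against 21.5%) and lower at 10 (18.9%, against 18.0%). The median of both marks was above 0 on the deposited scale at 5 of the 16 genes, as at *Esrrb*. These were *Klf2* (0.17 for MED1 and 1.18 for H3K27ac, 2 subregions), *Klf5* (0.46 and 0.20, 3 subregions), *Prdm14* (0.24 and 0.04, 7 subregions), *Pou5f1* (0.60 and 0.18, 1 subregion) and *Sall4* (0.57 and 0.44, 5 subregions). At *Tbx3*, a T-box factor of the same network, the median of 8 subregions was −1.54 for MED1 and −0.44 for H3K27ac, and at *Tfcp2l1* it was −1.16 and −0.42 (2 subregions).

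The other subregions of chromosome 12 lie far from the gene, so its close neighbourhood is not covered. These 29 subregions had a median log2 fold change of −0.32 for MED1 and 0.24 for H3K27ac, at ranks 15 and 8 of 20 chromosomes. The medians over all subregions were −0.14 and 0.24. The nearest of them, a pair of DM subregions 377 and 382 kb beyond the end of *Esrrb*, had MED1 log2 fold changes of −0.87 and −1.12 and H3K27ac log2 fold changes of −0.11 and −0.75. The next nearest lay 16078 kb from the gene. The input libraries were not used here, so the number of copies of the *Esrrb* locus in each cell line was not tested. No *Esrrb* subregion was without reads in the pooled values of the mutant, where the lowest had 144 H3K27ac and 226 MED1 reads. Whether each is present on every allele was not tested. A missing segment within S1 cannot be seen from 1 value per subregion. Of the stretches of 43 bases, the length of the reads, 98.2% in the 9 subregions occur once in the mm9 genome (96.4% in S1, 96.9% in S6 and 100% in the others).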

How the data were processed

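MED1 and H3K27ac ChIP-seq of *Esrrb* f/f and *Esrrb*-/- ESCs was analysed. The authors trimmed the reads (Trimmomatic), aligned them to mm9 (Bowtie2), removed duplicates (Picard), and counted reads per SE subregion. The deposited RPKM give 1 value per subregion, antibody and genotype. How the replicate libraries were joined, and which total was used, is not stated in the sources used here. Values of the input libraries were not used here.

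The 4 sets were joined on coordinates and type. The number of reads in a subregion was taken from RPKM times length, divided by the largest step that left whole numbers. All 671 values per condition came out within 0.001 of a whole number, with totals over all subregions of 291893 and 130733 (MED1) and 618492 and 730828 (H3K27ac) in *Esrrb* f/f and *Esrrb*-/- ESCs. These gave exact 95% intervals. Log2 fold changes use a pseudocount of 1 RPKM, which understates changes of low values. Functions were tested on 20 simulated pairs of libraries. All subregions in the window are named. Members and lists were chosen with earlier results of these data known. Positions and motifs come from the mm9 (NCBIM37) sequence and GENCODE M1; all 671 subregions start on a CpG of that sequence. The 7 alternatives fixed for each median, and those added later, are given in the closing section. Calculations were run in Python 3.11.15 with scipy 1.17.1, pandas 2.3.3 and numpy 2.4.6, and drawn with matplotlib 3.10.9.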

Additional observations from a re-analysis of the deposited data

How the results depend on the processing

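Pseudocounts of 0.1 or 10 RPKM left every *Esrrb* value within its counting interval. The median MED1 log2 fold change, 0.44 as deposited, was 0.58 with centring on the median of all subregions, 0.71 with reads scaled to their total over all subregions, 0.61 as a mean, 0.44 for the 7 subregions of at least 500 bp, and 0.65 without S7 as well as without S1 (the last 2 added after the data were seen). The median H3K27ac log2 fold change, 0.89 as deposited, was 0.65, 0.41 and 0.99 under the first 3 of these and 0.71 at 500 bp or longer. With subregions below the 25th percentile of mean RPKM left out, the medians were 0.44 and 0.80. With mapped read pairs, as listed by the study, for scaling (added after the data were seen), the medians were −0.34 for MED1 and 0.57 for H3K27ac. MED1 then turned to −0.34 at S1, −0.34 at S6 and −0.48 at S8, the count of MED1 values higher by 1.5 times was 0 and that of lower ones 2. Over the DM subregions these counts were 7 and 339. The count of 4 with higher MED1 was 6 with reads scaled to all subregions, 4 when centred and 3 at a limit of 2 times. By construction such scalings add 1 constant to all subregions of a mark. The count of 7 subregions with H3K27ac higher by 1.5 times was 3 at a limit of 2 times, 3 with reads scaled to all subregions, and 3 with mapped read pairs. MED1 minus H3K27ac, −0.29 as deposited, was 0.089 when centred, 0.46 with reads scaled to all subregions, and −0.74 with mapped read pairs. The ratio of H3K27ac read shares was 1.47 without S1 in place of 1.30, and that of MED1 read shares was 1.71 in place of 1.69. The shares of reads within the locus have no alternative scaling.

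No paired analysis was possible because the deposited values are not split by replicate library. The spread between replicates is therefore unknown here, and the intervals cover counting error only, which is widest at S7 for H3K27ac, with 91 and 144 reads.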
